A study of Mus musculus with 5 samples.

Results

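Matrix metalloproteinases (MMPs) and the tissue inhibitors that block them (TIMPs) were read in RNA-seq libraries of cultured mouse brain cells. The 10 genes were picked out by symbol, with no threshold on a measured value, though earlier results of these data were known when the list was made. They are 8 MMPs (Mmp2, Mmp3, Mmp9, Mmp11, Mmp12, Mmp13, Mmp14 and Mmp19) and 2 inhibitors (Timp2 and Timp3). Each had 1 row among the 20178 RefSeq transcripts of the tables. All cells came from ICR mice and were at passage 2. Astrocytes, labelled as astrocyte progenitor cells, were grown from pups at postnatal day 5, from ventral midbrain (VM) or from cortex (Ctx). The VM astrocytes gave 3 libraries: untransduced (VM), transduced with the mock virus (Cont), and transduced with viruses carrying Nurr1 and Foxa2 (N + F). In the study's methods the lentiviral inserts are driven by the CMV promoter, which is active in most cell types, and the mock is the empty vector. Ctx astrocytes and cortical neural progenitor cells of embryonic day 12 (Ctx NPCs) received no virus. There was 1 library per condition, so no difference between conditions could be tested.

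The titles of the transduced libraries name one as control and one as N + F, and the entries for the virus used name them the other way round. Groups here go by the titles. Were the virus entries right, every sign of N + F against Cont would turn, and the values of both libraries against VM would trade places. Nr4a2, the gene of Nurr1, had 81 reads in VM, 53 in Cont and 183 in N + F, and Foxa2 had 68, 15 and 216. Both were highest in the library whose title names N + F. Sgk1, a kinase gene that the study follows, had 3319, 7977 and 2947. Library totals lay between 20010818 and 22554835 reads. Reads scaled to these totals are given as CPM, and 3 reads were 0.133 CPM in the deepest library. Among the libraries, the markers did not always follow the labels. The Ctx NPC library had 41.1 FPKM (the deposited level per transcript length and library total) of the progenitor gene Hes5, but also 2246 FPKM of the astrocyte gene Gfap and 1485 of the myelin gene Mbp. The astrocyte libraries had 77.8 to 476 FPKM of Gfap beside 59.9 to 233 of the fibroblast collagen gene Col1a1. Of 12 microglial markers, 11 had a row, and their summed level was 1108 CPM in Cont against 315 in VM, 239 in N + F, 131 in Ctx astrocytes and 27.1 in Ctx NPCs.

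MMPs are zinc-dependent proteases that cut collagens, laminins, elastin and other matrix proteins as well as cytokines and receptors at the cell surface. Most are secreted as inactive precursors that other proteases cut before they act, and TIMPs then bind the active enzyme at its catalytic site. Transcription of several of them is known to respond to inflammatory cytokines through AP-1, the dimer of Fos and Jun proteins, whereas others are made more constantly by mesenchymal cells. In the nervous system they are known for opening the blood-brain barrier, for remodelling matrix after injury and for microglial invasion.

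Mmp3, Mmp12 and Mmp13 lie close together on chromosome 9 with further MMP genes. The bases before their starts are shown because in N + F these 3 members lay under their Cont values. The sequences are from RefSeq on GRCm38.p6, plus strand, and each ends 1 base before the annotated start of the gene's transcript. Capitals mark a match to the AP-1 motif TGANTCA, searched on both strands of a window from 250 bases before to 50 bases after the start. The matches overlap no other motif searched, which were those of Foxa, Nurr1, NF-κB and the TATA box. Mmp10, a neighbour in the same cluster, and Mmp14, a member on chromosome 14, are shown for comparison. The stretches are chr9:7445722-7445821 for Mmp3, chr9:7347274-7347373 for Mmp12, chr9:7272414-7272513 for Mmp13, chr9:7502242-7502341 for Mmp10 and chr14:54431498-54431597 for Mmp14.
Mmp3: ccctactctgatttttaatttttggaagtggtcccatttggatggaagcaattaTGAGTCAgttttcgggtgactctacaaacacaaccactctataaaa
Mmp12: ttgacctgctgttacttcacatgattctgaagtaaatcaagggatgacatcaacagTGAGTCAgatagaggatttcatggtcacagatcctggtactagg
Mmp13: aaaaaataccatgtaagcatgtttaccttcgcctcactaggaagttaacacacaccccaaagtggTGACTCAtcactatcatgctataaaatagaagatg
Mmp10: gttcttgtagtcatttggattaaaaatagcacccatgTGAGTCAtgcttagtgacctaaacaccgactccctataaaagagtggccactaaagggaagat
Mmp14: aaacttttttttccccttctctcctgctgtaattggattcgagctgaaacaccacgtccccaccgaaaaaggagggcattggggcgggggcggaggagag

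The AP-1 letters began 46 bases before the start of Mmp3, 44 before that of Mmp12, 35 before that of Mmp13 and 63 before that of Mmp10. Of the 10 members, 7 matched a promoter entry (Mmp3, Mmp11, Mmp12, Mmp13, Mmp14, Timp2 and Timp3), and 3 of these 7 held the motif. Mmp2, Mmp9 and Mmp19 had no entry. Of all 32851 promoter windows, 7.81% held it. Outside the members, the windows of Mmp8, from the same cluster, and of the inhibitor Timp1 were also searched. Neither held the AP-1 motif. Mmp8 had 762 reads in VM and 806 in Cont, and Timp1 had 8529 and 42594. Mmp12 had a second annotated start 2977 bases upstream, whose window held no AP-1 match and held the NF-κB motif, present in 8.46% of all windows. Among the members, the Foxa motif TGTTTAC was in the window of Mmp13. The window of Mmp10 also held it, as did 3.65% of all windows. The Nurr1 half-site motif AAAGGTCA was in none of the members' windows and in 1.51% of all. The TATA box letters TATAAA were in the windows of Mmp3, Mmp12 and Mmp13 and in 13.6% of all. They began 7 bases before the start of Mmp3 and 16 before that of Mmp13. In Mmp12 they began 4 bases after the start shown, so there they were not upstream of it. A match is a row of letters, and binding was not measured.

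The first comparison asked how the genes differed between N + F and Cont, the pair that the study uses to read the action of Nurr1 and Foxa2. Mmp3, Mmp12 and Mmp13 were lower in N + F, and Mmp2 and Mmp11 were higher. The other members differed by less than 2-fold. A gene was counted at a 2-fold ratio of counts scaled to library totals with FPKM > 1 in either library. By this rule 3 of 10 members were lower and 2 of 10 higher, where 9.73% and 9.53% of 12701 genes were. The median log2 ratio was -0.36 over the members and -0.02 over all genes. Intervals below are exact 95% Clopper-Pearson intervals of the log2 ratio and cover counting error only.

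Mmp3 encodes stromelysin-1, which degrades proteoglycans and laminin and activates other MMP precursors. It had 287 reads in VM, 2040 in Cont, 188 in N + F, 26 in Ctx astrocytes and 14 in Ctx NPCs. Cont stood above every other library, and the remaining VM libraries lay close together. The log2 ratio of N + F to Cont was -3.29 (interval -3.51 to -3.07), a 9.76-fold lower value and the widest difference among the members. That of Cont to VM was 2.74 (2.57 to 2.93), and that of N + F to VM was -0.54 (-0.82 to -0.27). In per-length terms, the Mmp3 level was 7.44 FPKM in VM and 5.11 in N + F.

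Mmp13 encodes collagenase-3, an enzyme that cleaves fibrillar collagen. It had 373 reads in VM, 1173 in Cont, 291 in N + F, 23 in Ctx astrocytes and 5 in Ctx NPCs. As with Mmp3, Cont was the highest library. N + F stood to Cont at a log2 ratio of -1.86 (-2.05 to -1.68) and that of Cont to VM was 1.57 (1.40 to 1.74). N + F and VM differed by -0.29 (-0.52 to -0.07).

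Mmp12 encodes macrophage elastase, which cleaves elastin and is made mainly by cells of the macrophage lineage. It had 8514 reads in VM, 14232 in Cont, 5905 in N + F, 997 in Ctx astrocytes and 2 in Ctx NPCs. Its level in Cont, 174 FPKM, was the highest of any MMP in that library. The log2 ratio of N + F to Cont was -1.12 (-1.16 to -1.08). That of Cont to VM was 0.66 (0.62 to 0.70), under the 2-fold limit. N + F lay below VM by a log2 ratio of -0.46 (-0.51 to -0.41).

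These 3 genes share their stretch of chromosome 9 with Mmp8 and Mmp10. Of the 10 MMP genes listed for the cluster, 9 had a row and 5 had FPKM > 1 in N + F or Cont. Mmp10, stromelysin-2, had 37 reads in VM, 144 in Cont and 21 in N + F, a log2 ratio of N + F to Cont of -2.60 (-3.36 to -1.96). Mmp8, the neutrophil collagenase, had 762, 806 and 615 reads in the same order, with a log2 ratio of -0.24 (-0.39 to -0.09). Mmp8 was therefore near even across the VM libraries while its neighbours were highest in Cont. The 4 further genes with a row, Mmp1a, Mmp1b, Mmp7 and Mmp20, had at most 5 reads in any library.

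Markers of microglia and of oligodendrocytes were also lower in N + F. All 11 microglial markers with a row had less signal in N + F than in Cont, and their sum was 4.64-fold lower. P2ry12, a defining marker of resting microglia, stayed at or below 0.435 FPKM in every library, whereas Tyrobp reached 249 FPKM in Cont. Neutrophil markers were near 0 apart from S100a8, with at most 0.0890 FPKM of S100a9, Mpo or Elane. In bulk RNA, fewer cells of a type and less RNA per cell cannot be told apart. The 6 oligodendrocyte markers summed to 213 CPM in N + F and 400 in Cont, with 5 lower, and Mbp was 11.5-fold lower. The marker that was higher, Cnp, made up most of the sum in N + F, with 191 CPM there and 164 in Cont. The median log2 ratio of the 5 with FPKM > 1 in either library was -3.53. The part of the microglial and oligodendrocyte markers in the values of Mmp3, Mmp12 and Mmp13 was not tested.

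**Figure D1:**
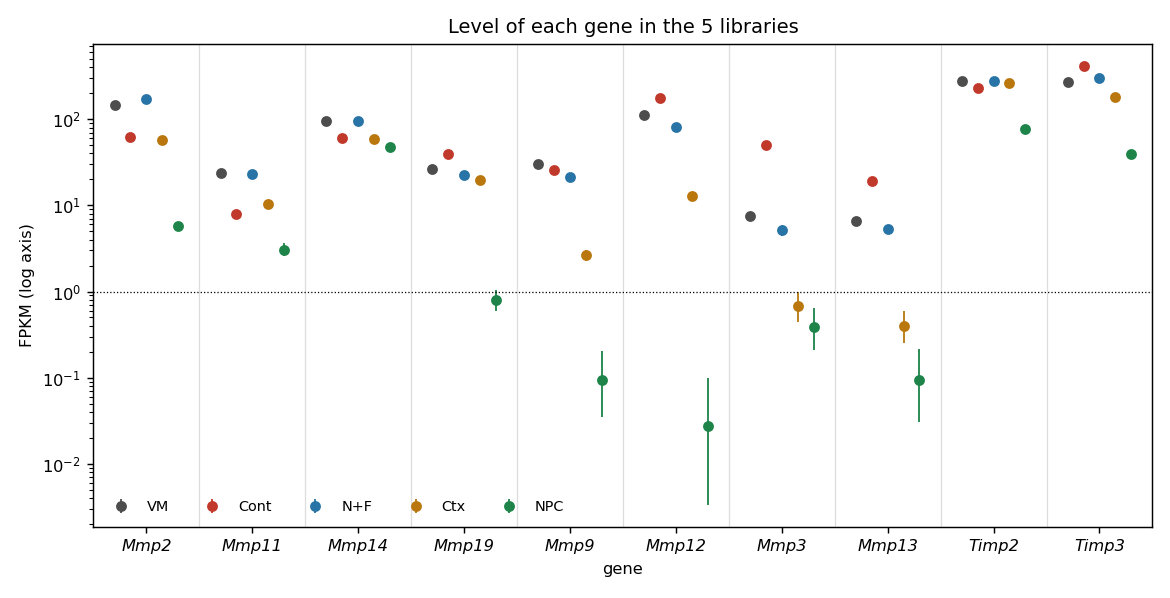
FPKM on a log axis for each of the 10 genes in the 5 libraries, with bars for the exact 95% counting interval (hidden by the point where it is narrow) and a dotted line at 1 FPKM. Cont is the highest library for Mmp3, Mmp12, Mmp13, Mmp19 and Timp3, and Ctx NPCs are the lowest for all 10.

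Mmp2 encodes gelatinase A, which degrades type IV collagen and denatured collagen and is widely made by fibroblasts and other mesenchymal cells. It had 9631 reads in VM, 4369 in Cont, 10804 in N + F, 3792 in Ctx astrocytes and 352 in Ctx NPCs. Here Cont was the lowest of the VM libraries. For N + F to Cont the log2 ratio was 1.46 (1.40 to 1.51), and that of Cont to VM was -1.22 (-1.27 to -1.17). N + F exceeded VM by 0.23 (0.19 to 0.27).

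Mmp11 encodes stromelysin-3, which is cut to its active form inside the cell before secretion and is typical of stromal fibroblasts. It had 1150 reads in VM, 416 in Cont, 1082 in N + F, 518 in Ctx astrocytes and 141 in Ctx NPCs. The log2 ratio of N + F to Cont was 1.53 (1.36 to 1.69) and that of Cont to VM was -1.55 (-1.71 to -1.39). N + F and VM were not distinguishable by their reads, with a log2 ratio of -0.02 (-0.14 to 0.10) that became 0.03 with edgeR's TMM scaling.

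Mmp14 encodes a membrane-bound MMP that, together with Timp2, activates the Mmp2 precursor at the cell surface. It had 7710 reads in VM, 5177 in Cont, 7382 in N + F, 4755 in Ctx astrocytes and 3583 in Ctx NPCs. Its order across the VM libraries was that of Mmp2, with a smaller span. The ratio of N + F to Cont, as log2, was 0.66 (0.61 to 0.71) and that of Cont to VM was -0.66 (-0.71 to -0.61). N + F and VM were not distinguishable, at 0.00 (-0.04 to 0.05).

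Fibroblast and meningeal markers, which include Col1a1, Dcn and Twist1, summed to 2599 CPM in N + F, 1514 in Cont and 2425 in VM. Of these 10 markers, 6 were higher and 4 lower in N + F when set against Cont, and none was at 0. Col1a1 and Col1a2 made up most of the sum, with 1393 and 760 CPM in N + F and 622 and 378 in Cont. Dcn was among the 4 lower, with 59.6 CPM in N + F and 115 in Cont. Mural cell markers summed to 1956 CPM in N + F, 1425 in Cont and 2259 in VM. Their part in the values of Mmp2, Mmp11 and Mmp14 was not tested.

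Mmp9 encodes gelatinase B, an inducible enzyme of myeloid cells that attacks the vascular basement membrane. It had 2053 reads in VM, 1843 in Cont, 1378 in N + F, 181 in Ctx astrocytes and 6 in Ctx NPCs. Among the VM libraries it spanned 1.42-fold in CPM, the narrowest span of any member MMP. The log2 ratio of N + F to Cont was -0.27 (-0.37 to -0.17), and that of Cont to VM was -0.24 (-0.33 to -0.15). In N + F, Mmp9 was lower than in Cont, whereas Mmp2, the other gelatinase, was higher. The microglial sum was 3.52-fold higher in Cont than in VM and 4.64-fold lower in N + F than in Cont. The part of microglial markers in the Mmp9 values was not tested.

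Mmp19 encodes a secreted MMP that cuts basement membrane proteins. It had 1913 reads in VM, 3013 in Cont, 1546 in N + F, 1427 in Ctx astrocytes and 54 in Ctx NPCs. Its log2 ratio of N + F to Cont was -0.81 (-0.90 to -0.72), short of 2-fold. That of Cont to VM was 0.57 (0.49 to 0.66). The row overlaps Tmem198b, which had 1325 to 1787 reads in the VM libraries, and whether reads were counted by strand is not given in the sources used here.

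By FPKM, the inhibitors were the most abundant members in each of the 4 astrocyte libraries, while in Ctx NPCs Mmp14, at 47.0 FPKM, stood above Timp3, at 39.6. Timp2, a secreted inhibitor that also takes part in Mmp2 activation, had 21741 reads in VM, 18711 in Cont, 20348 in N + F, 20424 in Ctx astrocytes and 5545 in Ctx NPCs. Across the 4 astrocyte libraries its level kept between 229 and 281 FPKM. N + F stood to Cont at a log2 ratio of 0.27 (0.24 to 0.30), and that of Cont to VM was -0.30 (-0.33 to -0.27). Its ratio of N + F to VM, -0.03, became 0.02 with TMM.

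Timp3 is bound to the matrix and also inhibits several ADAM proteases. It had 27047 reads in VM, 43415 in Cont, 28471 in N + F, 17972 in Ctx astrocytes and 3712 in Ctx NPCs. Cont was highest, at 411 FPKM. The log2 ratio of N + F to Cont was -0.46 (-0.48 to -0.44) and that of Cont to VM was 0.60 (0.58 to 0.62). Timp3 and Timp2 therefore stood in opposite order between N + F and Cont, each by less than 2-fold. Timp3 overlaps Syn3, which had at most 233 reads in any library.

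The other inhibitors listed were Timp1, Timp4, Reck and A2m. Timp1, a secreted inhibitor that is readily induced by cytokines, had 8529 reads in VM, 42594 in Cont and 6367 in N + F. Its log2 ratio of N + F to Cont was -2.59 (-2.63 to -2.55), and that of Cont to VM was 2.24 (2.20 to 2.27). A2m, which traps many proteases, had 2126 reads in VM, 709 in Cont and 1608 in N + F, which gave a log2 ratio of N + F to Cont of 1.33 (1.20 to 1.46). Timp4, with -0.97, and Reck, a membrane-anchored inhibitor, with 0.92, stayed under 2-fold.

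Summed over the 22 MMP rows, the level was 513 FPKM in VM, 486 in Cont and 488 in N + F. Its make-up was not alike. Mmp2 held 28.6% of it in VM, 12.9% in Cont and 35.3% in N + F. Mmp12 held 21.5%, 35.9% and 16.4%. The 4 TIMP genes summed to 1009, 2764 and 932 FPKM, of which Timp1 held 44.3%, 76.3% and 37.5%. The summed TIMP level per summed MMP level was 1.97 in VM, 5.68 in Cont and 1.91 in N + F. These are RNA levels, and neither protein nor protease activity was measured.

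**Figure D2:**
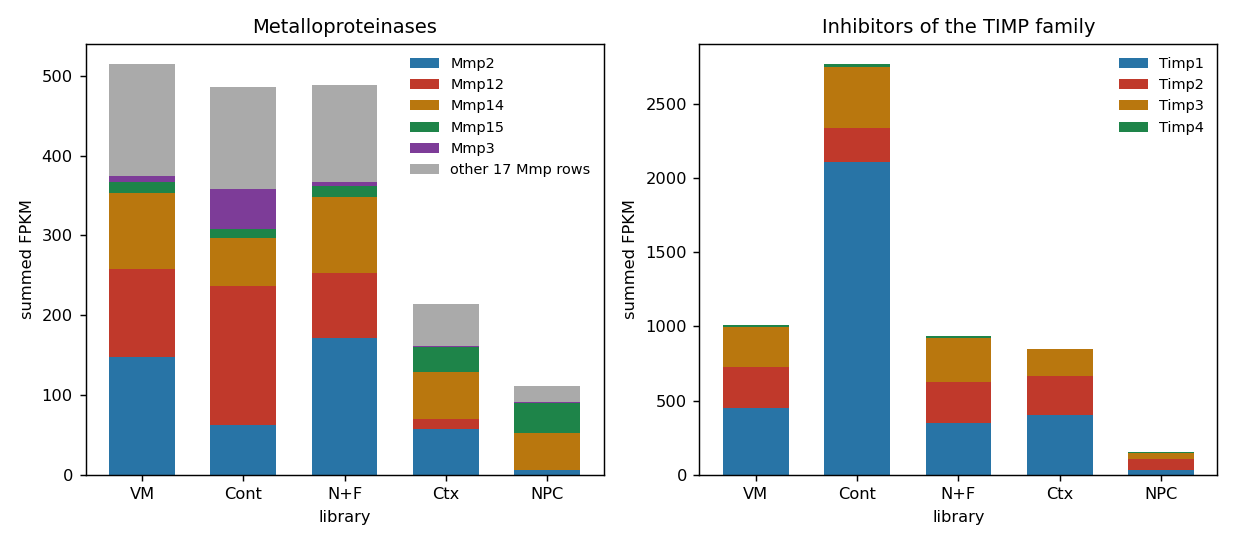
FPKM summed over the MMP rows (left) and the TIMP family (right) for each of the 5 libraries, with colours for single genes. The MMP sums of the VM libraries lie between 486 and 513 FPKM, while the TIMP sum of Cont, 2764 FPKM, stands above all others.

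Against the untransduced VM library, Cont and N + F gave unlike pictures. With 1 library per condition, the virus and the culture that received it cannot be told apart. In Cont, Mmp3 and Mmp13 were higher and Mmp2 and Mmp11 lower by at least 2-fold. These are 2 members each, where 7.30% of 12703 genes were higher and 8.48% lower. In N + F no member reached 2-fold in either direction, where 0.322% and 0.668% of 12428 genes did. With TMM scaling, the all-gene counts of 40 higher and 83 lower for N + F became 55 and 68. The median log2 ratio of the members was 0.17 for Cont and -0.13 for N + F, against -0.01 and -0.05 over all genes. The widest N + F difference from VM was the -0.54 of Mmp3, followed by -0.51 (-0.61 to -0.41) for Mmp9. The comparisons share the VM library, and N + F against Cont shares the Cont library with them.

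**Figure D3:**
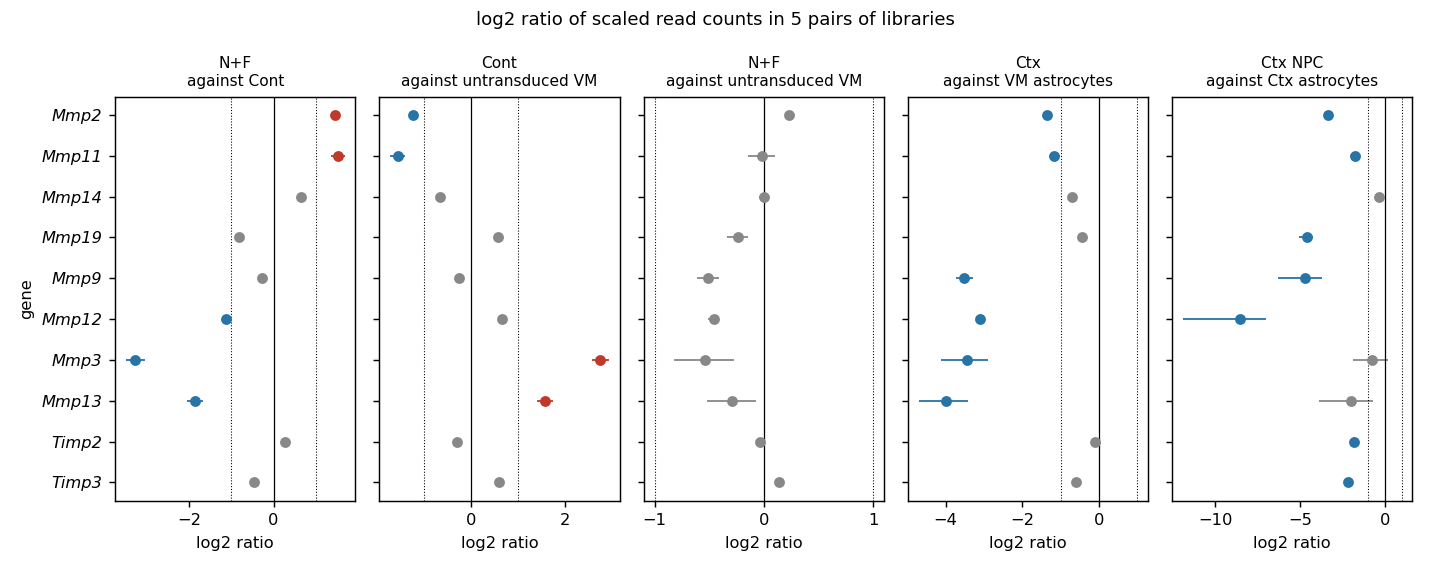
The log2 ratio of scaled read counts (horizontal axis, which differs between panels) for each gene in 5 pairs of libraries, with exact 95% counting intervals, dotted lines at 2-fold, and red or blue points for genes at least 2-fold higher or lower with FPKM > 1. In N + F against untransduced VM all 10 points lie inside the dotted lines, whereas 5 lie outside in N + F against Cont.

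Between regions, astrocytes without virus were compared. All 10 members were lower in Ctx than in VM astrocytes, 6 of them by at least 2-fold, where 9.89% of 12553 genes were lower. No member was higher, where 4.49% of all genes were. The median log2 ratio was -1.26 over the members and -0.05 over all genes. Mmp13 had the widest difference at -4.00 (-4.70 to -3.42), followed by Mmp9 at -3.51 (-3.74 to -3.29), Mmp3 at -3.45 (-4.11 to -2.89) and Mmp12 at -3.10 (-3.20 to -3.01). Mmp2 and Mmp11 differed by -1.35 (-1.41 to -1.30) and -1.16 (-1.31 to -1.01). Mmp14, at -0.71, Timp3, at -0.60, Mmp19, at -0.43, and Timp2, at -0.10, stayed under 2-fold.

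In the Ctx astrocyte library Mmp3 and Mmp13 were below 1 FPKM, at 0.670 and 0.400. Mmp14 and Mmp2 led there with 58.2 and 57.3 FPKM. The microglial sum was 2.41-fold lower in Ctx than in VM astrocytes, a smaller ratio than that of Mmp12, which was 8.59-fold lower. The fibroblast and meningeal sum was 2.13-fold lower, with 9 of 10 markers lower. Twist1 was at 1.57 FPKM in Ctx against 23.0 in VM, and Ogn, the marker that was higher in Ctx, had 5719 reads there against 2032 in VM. The astrocyte marker sum was 2.27-fold higher in Ctx. The part of these markers in the regional differences was not tested. Among the other MMPs, Mmp8 followed the cluster with -3.25 (-3.61 to -2.93), and Mmp15, a membrane-type MMP, was higher in Ctx by 1.17 (1.08 to 1.27).

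In Ctx NPCs all 10 members were at their lowest of the 5 libraries. Against Ctx astrocytes, 8 members had FPKM > 1 in either library and 7 of these were at least 2-fold lower, where 17.9% of 12623 genes were lower. None was higher, where 20.1% of all genes were. The median log2 ratio was -2.75 over those 8 and 0.19 over all genes, and the latter became 0.01 to 0.02 under the other scalings. Mmp12, with 2 reads, had a log2 ratio of -8.55 (-11.91 to -7.01). Mmp9 and Mmp19 followed with -4.71 (-6.28 to -3.67) and -4.61 (-5.04 to -4.23). Mmp2 was lower by -3.33 (-3.49 to -3.17), Timp3 by -2.18 (-2.23 to -2.13), Timp2 by -1.78 (-1.82 to -1.74) and Mmp11 by -1.77 (-2.06 to -1.51).

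Mmp14 was the exception, with a log2 ratio of -0.31 (-0.37 to -0.25), and it was the leading MMP of the Ctx NPC library at 47.0 FPKM. It held 42.4% of the summed MMP level there, followed by Mmp15 with 34.1% and Mmp24 with 6.85%. Mmp24, a membrane-type MMP known from neural tissue, had 51 reads in Ctx astrocytes and 655 in Ctx NPCs, a log2 ratio of 3.77 (3.37 to 4.22). Mmp3, with 26 reads in Ctx astrocytes and 14 in Ctx NPCs, was not distinguishable between these libraries, with an interval from -1.84 to 0.20. The library's summed oligodendrocyte markers were 23.0-fold above those of Ctx astrocytes and its microglial sum was 4.82-fold lower, with Trem2 at 0 reads. The fibroblast and meningeal sum was 2.72-fold lower, at 419 CPM, with 7 of 10 markers lower. Most of what remained in Ctx NPCs was Pdgfra, with 294 CPM there against 61.3 in Ctx astrocytes. Pdgfra was thus higher where the sum was lower, which made the fold of the sum smaller. Col1a1 and Col1a2 were 8.69-fold and 10.9-fold lower. The mural sum was 2.50-fold lower, with 5 of 5 lower. The part of all these markers in the values of the members was not tested.

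The order of the libraries differed among the members. Cont was highest for Mmp3, Mmp12, Mmp13, Mmp19 and Timp3. VM was highest for Mmp9, Mmp11 and Timp2, and N + F for Mmp2 and Mmp14. For Mmp11 the interval of VM and N + F held equality, as did that of N + F and VM and that of Cont and Ctx for Mmp14. Genes of similar pattern were sought by the root mean square difference of log2 CPM after centring each gene over the 5 libraries, which is a description of 5 points. Taking the nearest gene of each member, the difference was 0.0289 log2 units between Timp2 and Man2b1, a lysosomal mannosidase, and 0.0657 between Mmp14 and Serpinh1, a collagen chaperone. Mmp19 was nearest to Dhx58 (0.0688), an RNA sensor induced by interferon, and Mmp2 to Tgfbr3 (0.0891). Mmp12 was nearest to Wfdc17 (0.232) and Fcgr3 (0.329), an Fc receptor of myeloid cells. Timp3 was nearest to Gsap (0.0915) and Pdgfrb (0.0934), the latter a receptor of mural cells and fibroblasts. Mmp11 was nearest to Fbln5 (0.151), a protein of elastic fibres, and Mmp9 to Thbs2 (0.209). The nearest genes of Mmp13 and Mmp3 were further away, Mcpt8 at 0.305 and Phf11a at 0.249, and had at most 79 and 86 reads in a library.

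**Figure D4:**
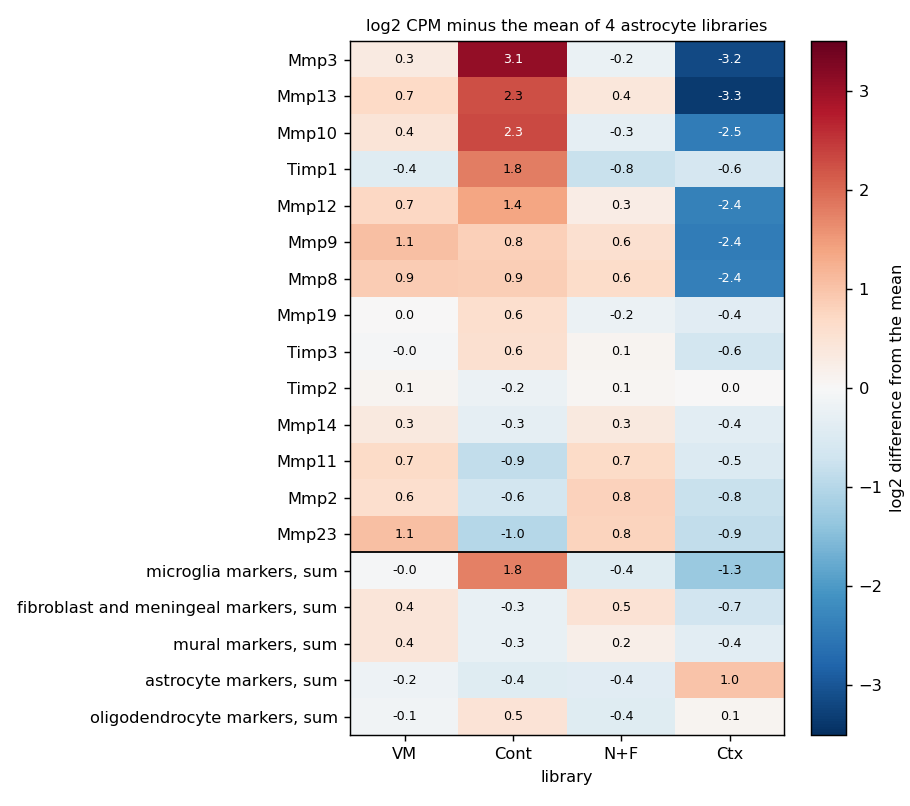
Log2 CPM of members, of Timp1, Mmp8, Mmp10 and Mmp23, and of summed marker lists (under the line), as the difference from the mean of the 4 astrocyte libraries, in colour and numbers. Mmp3, Mmp13, Mmp10 and Timp1 are highest in Cont, as is the microglial sum, and Mmp2, Mmp11 and Mmp23 are lower in Cont than in VM and N + F.

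The rest of the protease system was read from lists of genes. Of 15 other MMPs, 14 had a row and 7 passed FPKM > 1 in N + F or Cont. Of these, Mmp10 was lower in N + F, and Mmp23 was higher by 1.79 (1.56 to 2.03), with 776 reads in VM, 196 in Cont and 613 in N + F. Mmp23 overlaps Mib2, which had 1065 to 1578 reads in these libraries. The rest stayed under 2-fold, namely Mmp8, Mmp15 at 0.39, Mmp16 at -0.63, Mmp17 at 0.77 and Mmp28 at 0.92. Of 20 ADAM and ADAMTS proteases, 17 passed FPKM > 1. Of these, 1 was at least 2-fold higher and 2 lower in N + F, where 9.53% and 9.73% of 12701 genes were. Adam8, a sheddase of myeloid cells, had 3522 reads in VM, 17851 in Cont and 2468 in N + F. Adam12 had 619, 2089 and 596, and Adamts15 had 130, 35 and 137.

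Plasmin, made from plasminogen by Plau and Plat, activates several MMP precursors. Of 9 genes of this system, 7 passed FPKM > 1, of which 3 were at least 2-fold lower in N + F and none was higher. Over all 12701 genes, 9.73% were lower and 9.53% higher. Plau, the urokinase, had 559 reads in VM, 2820 in Cont and 488 in N + F, a log2 ratio of N + F to Cont of -2.38 (-2.52 to -2.24). Serpinb2, an inhibitor of Plau, had 131, 7956 and 96 reads, a log2 ratio of -6.22 (-6.53 to -5.93). The third was the urokinase receptor Plaur, with 913, 2546 and 566 reads, named after its value was seen because it completes the count.

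Of 23 genes listed as regulators of MMPs, 21 passed FPKM > 1, with 5 higher and 4 lower in N + F than in Cont. The shares over all 12701 genes were 9.53% higher and 9.73% lower. The cytokine genes Tnf and Il1a were lower, at -3.57 (-4.18 to -3.06) and -2.17 (-2.34 to -2.01). Among AP-1 genes, Fos was higher in N + F, with 3683 reads in VM, 1313 in Cont and 4844 in N + F, and Junb had 8973, 4308 and 9772. Jun had 7361, 7052 and 7547 reads and Fosl1 had 1169, 1976 and 1027. Fosl2 had 8827, 6000 and 11102 reads, a log2 ratio of N + F to Cont of 1.04 (0.99 to 1.08). Jun, Fosl1 and Fosl2 were named after their values were seen. Of the 5 AP-1 genes listed, Fos, Junb and Fosl2 were thus at least 2-fold higher in N + F, while Jun and Fosl1, at 0.25 and -0.79, stayed under 2-fold. Of 17 matrix substrates, 16 passed FPKM > 1, with 6 higher and 1 lower in N + F, beside the same 9.53% and 9.73% of all genes. Eln, the elastin gene, had 588, 75 and 494 reads, and Col6a1 had 12487, 3988 and 12166. Spp1, which encodes osteopontin, was the lower one, with 49052, 119830 and 41781 reads.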

How the data were processed

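RNA-seq of 5 mouse libraries, 1 per condition, was read from the deposited tables. Per the methods, the authors removed bases of quality under 20, aligned with STAR to GRCm38/mm10, and used HTSeq-count for the exons of RefSeq Release 105. The submitters' processing notes name mm9 instead, so coordinates here are those of RefSeq on GRCm38.p6 and not of the files. The deposited count of a row is a whole number without normalisation. The deposited FPKM was made by the authors from that count, and a recalculation had a largest relative difference of 4.09e-05. The last line of each table, the library total, was left out. RefSeq accessions gave a symbol for 19997 rows.

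For log2 ratios, counts were scaled to the library totals and 0.5 scaled reads were added to each. No test was possible with 1 library per condition. The members and lists were chosen with earlier results of these data known, and the promoter motifs and shown sequences after the values were seen. Named besides the members were the virus genes, other MMPs and inhibitors with FPKM > 1, the 2 widest differences in each direction per further list, and the 3 nearest genes by pattern, of which some are given. Mmp27, Adam23, Cd68 and Ly6g matched no row. Alternatives were TMM (edgeR 4.0.16), DESeq2 1.42.0 size factors, upper-quartile scaling, 5 or no reads added, other filters and a 3-fold limit. The ratio and its interval were tested on simulated data. Python 3.11.15, scipy 1.17.1 and R 4.3.3 were used.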

Additional observations from a re-analysis of the deposited data

How the results depend on the processing

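The counts of members past 2-fold kept within 1.5 times their value in 86 of 90 settings. These 86 include every main count of 0, which stayed 0 throughout. They also include falls such as that from 6 to 4 members lower in Ctx than in VM astrocytes, with FPKM > 1 in both. The exceptions were set by the limits themselves. At 3-fold, N + F against Cont had 0 higher members instead of 2, and in Cont against untransduced VM 1 was higher (Mmp3) and 0 lower, each instead of 2. With FPKM > 1 required in both libraries, 4 instead of 7 members were lower in Ctx NPCs than in Ctx astrocytes. Of 200 recomputed log2 ratios of single members, 168 stayed inside their counting interval, 32 moved outside it and 2 that lay near 0 changed sign, both with TMM and both given above. No member past 2-fold changed direction under the scalings or with 5 reads added. Without a filter, the genes past 2-fold between N + F and Cont numbered 2388 higher and 2453 lower instead of 1210 and 1236. No paired analysis was possible because each condition has 1 library. Counting error was small beside the differences for most members, but 2 to 14 reads limit Mmp3, Mmp9, Mmp12 and Mmp13 in Ctx NPCs, and variation between cultures was not measured.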
